A study of Mus musculus with 12 samples.

Results

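The Zic genes described here are Zic1, Zic2, Zic4 and Zic5, the 4 members taken by symbol out of 23284 genes in a table of raw counts from single whole mouse embryos. All 4 passed the filter on low counts and were among the 14412 genes tested. The mutant-labelled group held 8 embryos, described as null for Tgif1 and Tgif2 and, in the series text, as conditional double mutants. The wild-type group held 4 embryos. Both groups were on a mixed C57BL/6 x 129Sv background and were collected at embryonic day 9.0, with about 9 to 10 somites. The sources used here do not give the Cre driver behind the conditional alleles, the deleted exons or the litters. Tgif1 and Tgif2 encode homeodomain repressors, which limit the response of genes to TGF-beta and Nodal.

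Zic genes encode zinc finger transcription factors related to the Gli proteins of the hedgehog pathway. In the early vertebrate embryo they are expressed in the dorsal neural tube, the neural plate border and the dorsal somites. Loss of ZIC2 causes holoprosencephaly in humans, a failure of the forebrain to divide, and TGIF1 is also a human holoprosencephaly gene. The genes lie in divergent neighbouring pairs: Zic1 and Zic4 on mouse chromosome 9, and Zic2 and Zic5 on mouse chromosome 14.

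The labels were checked first. Tgif1 stood at 5.5 to 6.87 CPM (counts scaled to library size) in the mutant-labelled embryos, against 58.5 to 64.2 CPM in wild type, and the groups did not overlap. Tgif2 stood at 84.4 to 116 CPM in the mutant-labelled embryos, against 85.7 to 88.5 CPM in wild type, so its deletion is known here only from the labels. Reads from exons that a deletion leaves in place would still be counted. Libraries held 16802367 to 21346245 counts. Mutant-labelled embryo 2 stood apart with a posterior Hox score (mean log2 CPM of the listed genes) of 0.038, where its 7 group mates had 2.15 to 2.85 and wild-type embryos 2.35 to 2.88. The same embryo had the lowest primitive red cell score, 1.18 against 2.53 to 4.39 in its group mates and 3.83 to 4.41 in wild type. Its heart score of 7.07 was the highest. Wild-type embryo 1 had a forebrain score of 3.72, against 2.7 to 3.16 in the mutant-labelled embryos and 3.17 to 3.27 in the other wild-type embryos. Yolk sac endoderm genes were detected in every library, with scores of 4.66 to 6.79 in the mutant-labelled embryos and 4.7 to 6.4 in wild type.

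Zic2 and Zic5 were lower in all 8 mutant-labelled embryos than in any wild-type embryo. Zic1 and Zic4 did not pass the test, and spread widely among the mutant-labelled embryos. With 2 of 4 members called, the family stood close to the background, since 51.5% of all genes tested passed in this comparison. Of all genes tested 24.9% passed as lower, and 34.7% had groups that did not overlap, 17.1% with every mutant-labelled embryo below every wild-type embryo. In whole embryos, fewer cells of a type and less RNA per cell cannot be told apart.

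Zic2, needed in the mouse for forebrain midline and neural tube development, had the highest mean CPM of the members in both groups. In mutant-labelled embryos 7 and 8 Zic1 was higher, at 55.4 and 53.4 CPM against 47.7 and 46.1 CPM for Zic2. It was measured at 40.8 CPM in the lowest, 46.9 at the median and 56.7 in the highest of the mutant-labelled embryos, against 72.7, 67.3, 59.7 and 71.7 CPM in wild-type embryos 1 to 4. The highest mutant-labelled embryo, embryo 2, lay just below the lowest wild-type embryo, embryo 3. The means were 47.7 ± 5.59 CPM (SD, n = 8) and 67.8 ± 5.94 CPM (SD, n = 4). The log2 fold change was -0.51 (SE 0.084, 95% interval -0.69 to -0.33, adjusted p = 0.000153 by edgeR's quasi-likelihood test), a level 0.704 times that of wild type. Removal of trends on GC content and transcript length gave a larger fall, at -0.68.

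Zic5, which has roles in neural tube closure and neural crest formation in the mouse, was about an order lower in counts. It stood at 3.22 CPM in the lowest, 4.55 at the median and 6.02 in the highest of the mutant-labelled embryos, against 7.82, 6.74, 6.16 and 7.13 CPM in wild-type embryos 1 to 4. Again no mutant-labelled embryo reached the wild-type range, although embryos 3 and 5, at 6.02 and 5.9 CPM, came near it. The means were 4.59 ± 1.04 CPM (SD, n = 8) and 6.96 ± 0.697 CPM (SD, n = 4), with a log2 fold change of -0.60 (SE 0.16, 95% interval -0.94 to -0.26, edgeR adjusted p = 0.00568). Zic5 has 1 near-identical copy in the GENCODE M21 transcripts, the processed pseudogene Gm12241, over 726 bases at 98.9% identity. Its count is therefore uncertain, since the treatment of reads with several matches is not given.

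Zic1, which takes part in cerebellar and dorsal somite development in the mouse, had the widest range among the more abundant members. It stood at 11.5 CPM in the lowest, 27.5 at the median and 55.4 in the highest of the mutant-labelled embryos, against 33.1, 27.9, 27.9 and 22.5 CPM in wild-type embryos 1 to 4. Mutant-labelled embryos 7 and 8, at 55.4 and 53.4 CPM, lay far above every wild-type embryo, embryo 5, at 33.3 CPM, just above, and embryos 1 and 6, at 19.6 and 11.5 CPM, lay below. The means were 31.9 ± 15.3 CPM (SD, n = 8) and 27.9 ± 4.33 CPM (SD, n = 4). The log2 fold change of 0.19 did not pass (SE 0.36, edgeR adjusted p = 0.678), and its 95% interval of -0.59 to 0.98 leaves room for a change of either sign. With the pan-neural score, the mean level of neural genes, as a covariate it was -0.011.

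Zic4, whose human counterpart is deleted together with ZIC1 in some people with the Dandy-Walker malformation of the cerebellum, was close to the limit of detection, with 3 to 41 counts in a mutant-labelled embryo and 19 to 28 in a wild-type embryo. It stood at 0.176 CPM in the lowest, 0.92 at the median and 2.1 in the highest of the mutant-labelled embryos, against 1.62, 0.962, 1.09 and 1.15 CPM in wild-type embryos 1 to 4. As for Zic1, embryos 7 and 8 were the highest and embryos 6 and 1 the lowest. The wild-type range had 5 mutant-labelled embryos beneath it and 2 above it. The means were 1.11 ± 0.692 CPM in the mutant-labelled embryos (SD, n = 8) and 1.21 ± 0.288 CPM in wild type (SD, n = 4). The log2 fold change of -0.11 did not pass (SE 0.43, 95% interval -1.03 to 0.81, edgeR adjusted p = 0.852). Its sign turned without wild-type embryo 1 (0.059), without mutant-labelled embryo 6 (0.047), and without mutant-labelled embryo 2 and wild-type embryo 1 together (0.096). In that last fit Zic1 stood at 0.32, Zic2 at -0.51 and Zic5 at -0.56.

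**Figure D1:**
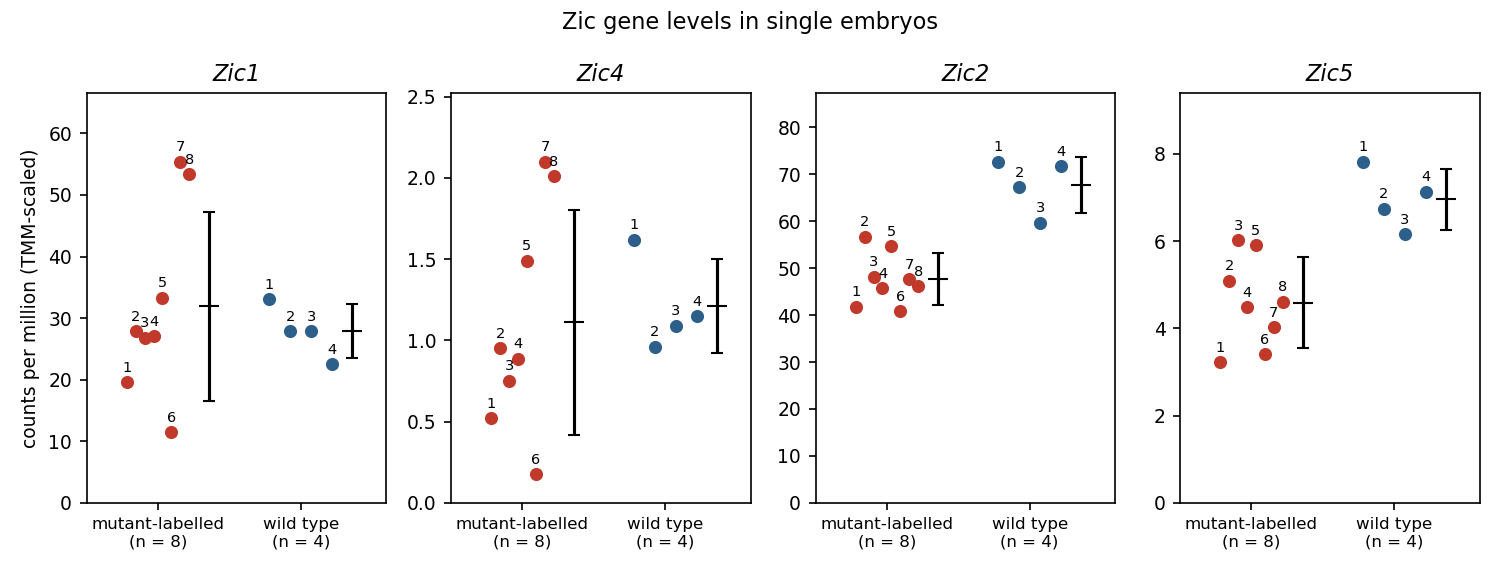
TMM-scaled CPM (y axis, from 0, a scale of its own in each panel) of the 4 Zic genes in single embryos, numbered within their group, with the group mean and SD beside the points. All 8 mutant-labelled embryos lie below all 4 wild-type embryos for Zic2 and Zic5, while for Zic1 and Zic4 mutant-labelled embryos 7 and 8 lie highest and embryos 1 and 6 lowest of all 12 embryos.

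The spread of the members was set beside that of other genes. The coefficient of variation of Zic1 was 48.1% among the mutant-labelled embryos and 15.5% among the wild-type embryos. Counting error alone gives 4.06% and 4.41% in the same groups. For comparison, the median over 7229 genes with a mean of 10 to 100 CPM was 9.17% in the mutant-labelled embryos, and 99.3% of those genes varied less than Zic1 there. In wild type 93.3% of them varied less than Zic1. Zic2 lay nearer the middle, at 11.7% in the mutant-labelled group and 8.76% in wild type. Zic5 varied by 22.7% and 10%, where counting error alone would give 10.7% and 8.79%. Zic4 varied by 62.3% and 23.9%, and in wild type its counting error of 21.2% was nearly as large. From the lowest to the highest mutant-labelled embryo Zic1 differed 4.83-fold and Zic2 1.39-fold. These values describe the embryos and were not tested.

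Whether the members differed from each other in their response was tested on their ratios in each embryo. Over the 6 pairs, no difference in the mean log2 ratio, computed on CPM plus 0.5, passed a two-sided exact permutation test over embryos after adjustment. The Zic1 to Zic2 log2 ratio was -0.72 ± 0.67 in the mutant-labelled embryos (SD, n = 8) and -1.28 ± 0.26 in wild type (SD, n = 4), a difference of 0.56 (exact permutation p = 0.135, adjusted p = 0.271). The Zic1 to Zic5 ratio differed by 0.63 (exact permutation adjusted p = 0.271). The Zic1 to Zic4 ratio had the lowest p, with a mean of 4.3 ± 0.13 against 4.06 ± 0.21 and a difference of 0.25 (exact permutation p = 0.0303, adjusted p = 0.182). That difference was 0.13 with a pseudocount of 2 CPM and 0.16 without wild-type embryo 4 (exact permutation adjusted p = 0.638 and 0.527). Zic4 in mutant-labelled embryo 6, at 0.176 CPM, lay below the 0.5 CPM added to it, which narrows the spread of this ratio. In raw counts Zic4 equalled 1.54% of Zic1 in that embryo and up to 4.47% in its group. The Zic2 to Zic5 ratio differed by 0.066 (exact permutation adjusted p = 0.556). It ranged from 2.9 to 3.51 in the mutant-labelled embryos and from 3.14 to 3.24 in wild type. A response of Zic2 and Zic5 that differs from that of Zic1 and Zic4 was thus not shown.

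Each member was also set against a score of neural progenitor genes. The pan-neural score, the mean log2 CPM of 20 neural progenitor genes, ranged from 5.43 to 5.84 in the mutant-labelled embryos and from 5.57 to 5.78 in wild type. Relative to it Zic2 stood at -0.093 ± 0.14 in the mutant-labelled embryos (SD, n = 8) and at 0.44 ± 0.088 in wild type (SD, n = 4). The difference of -0.53 gave a two-sided exact permutation p of 0.00202, the smallest the 495 splits can give, and an adjusted p of 0.00404. Zic5 differed by -0.60 (exact permutation adjusted p = 0.00404), also without overlap between the groups. Zic1 differed by 0.027 and Zic4 by -0.22 (exact permutation adjusted p = 0.945 and 0.609). The score differed little between the groups, with a median log2 fold change of 0.0015 over its genes. The fall of Zic2 and Zic5 thus had to be of like size on both scales and is no separate result. Fewer Zic-expressing cells and less RNA per cell remain untold apart. With the yolk sac score as a covariate the edgeR log2 fold changes were -0.53 for Zic2, -0.64 for Zic5, 0.066 for Zic1 and -0.28 for Zic4.

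**Figure D2:**
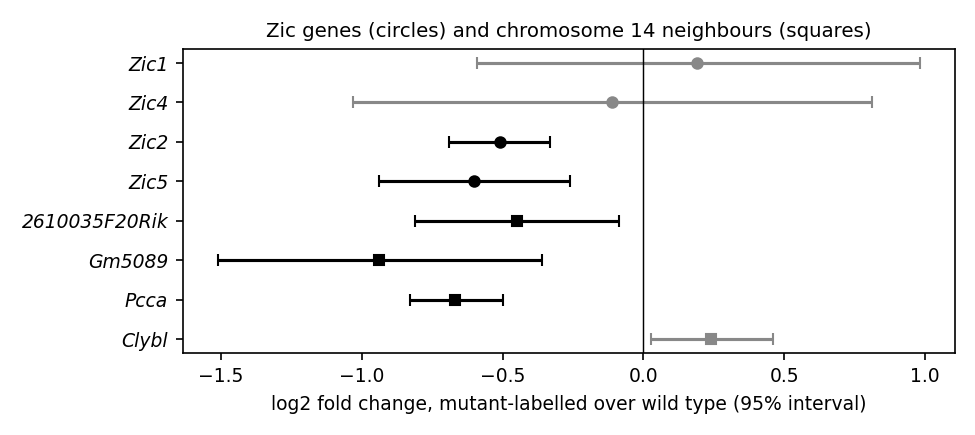
Log2 fold change of mutant-labelled over wild-type embryos with its 95% interval from edgeR (x axis) for the 4 Zic genes (circles) and for the genes beside Zic2 and Zic5 on chromosome 14 (squares), in black where the adjusted p is under 0.05 and in grey where it is not. Zic2 at -0.51 and Zic5 at -0.60 lie below 0 with their whole intervals, while the intervals of Zic1 and Zic4 span 0.

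Within the mutant-labelled group the chromosome 9 neighbours moved together from embryo to embryo. Over the 8 embryos log2 Zic1 and log2 Zic4 had a Pearson r of 0.99 (exact permutation p = 2.48e-05, the smallest the pairings can give, adjusted p = 0.000149 over 6 pairs) and a Spearman rho of 1.0 (exact permutation adjusted p = 0.000298). Without embryos 6 and 7, the farthest from the median in Zic1, r was 0.96 (exact permutation p = 0.00139). The 0.5 CPM added before the log exceeds Zic4 in embryo 6 (0.176 CPM), and r with a smaller pseudocount was not computed. Ranks, and so rho, do not depend on it. The chromosome 14 neighbours Zic2 and Zic5 had r = 0.79 and rho = 0.81 (exact permutation p = 0.0187 and 0.0218, adjusted p = 0.056 and 0.0653). That pair passed only without embryo 2 (r = 0.86, exact permutation adjusted p = 0.0482) or without embryo 3 (r = 0.89, exact permutation adjusted p = 0.0333). Without embryos 2 and 5, the farthest in Zic2, r was 0.83 (exact permutation p = 0.0431). Between the pairs r ran from 0.4 to 0.52, and none passed (exact permutation adjusted p = 0.335 for each).

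**Figure D3:**
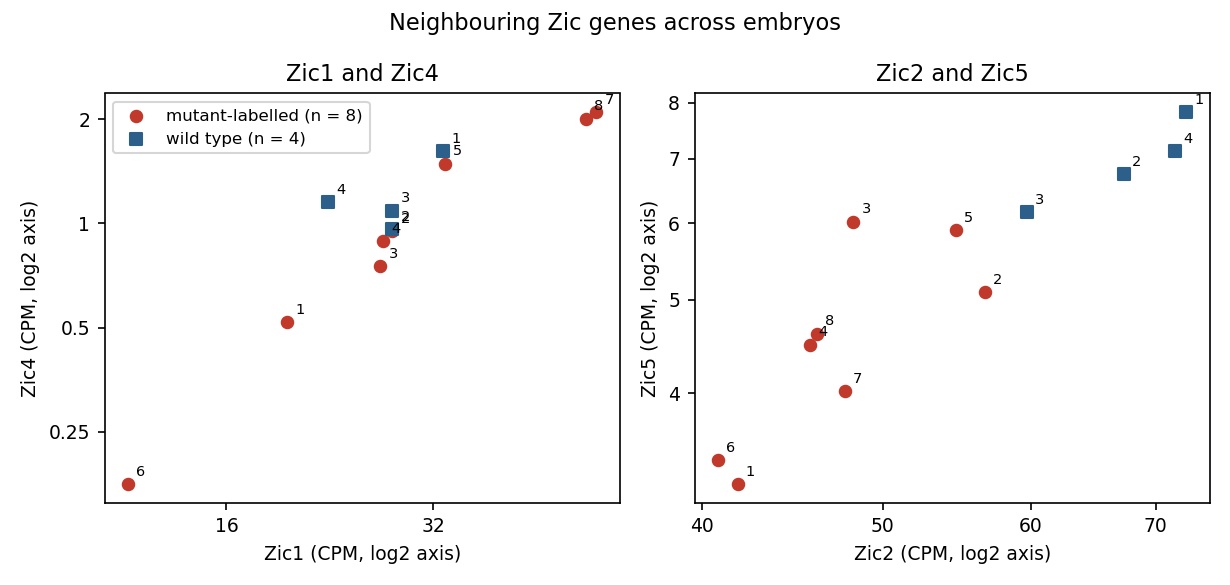
CPM of Zic4 against Zic1 (left) and of Zic5 against Zic2 (right), each point 1 numbered embryo and both axes on a log2 scale. The mutant-labelled embryos run along one line from embryo 6 to embryos 7 and 8 for Zic1 and Zic4, while for Zic2 and Zic5 they form a looser cloud below the wild-type embryos.

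The gene bodies of Zic1 and Zic4 overlap head to head by 3398 bases in GENCODE M21 (GRCm38), but their exons share only 60 bases, which are 1.1% of the exon bases of Zic1 and 0.6% of those of Zic4. The strand setting of the counting is not given, so reads from that stretch cannot be assigned to one gene. The unclassified transcript Gm37477 shares a further 468 bases, or 4.5%, of the Zic4 exons. Zic4 counts equalled 1.54% to 4.47% of Zic1 counts in the mutant-labelled embryos and 3.45% to 5.09% in wild type. How far shared reads enter the joint variation was not tested. Zic2 and Zic5 start 9758 bases apart and do not overlap each other.

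Promoters of the members are shown because Zic1 and Zic4, which start head to head, moved together. By symbol, 3 of the 4 members (Zic1, Zic4 and Zic5) matched the RefSeq promoter table on GRCm38.p6, while the files use mm9. The window searched was the 250 bases before the start. Capitals mark TGTCA, the core sequence recognised by TGIF proteins, on either strand. Only the stretch of a window before the first annotated exon is printed, here for 1 gene of each chromosome.
Zic1, chr9:91365811-91366018, minus strand: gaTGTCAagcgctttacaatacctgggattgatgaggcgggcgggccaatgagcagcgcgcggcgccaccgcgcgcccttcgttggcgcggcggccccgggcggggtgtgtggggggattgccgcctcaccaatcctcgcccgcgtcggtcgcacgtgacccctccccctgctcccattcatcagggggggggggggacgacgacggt
Zic5, chr14:122465678-122465908, minus strand: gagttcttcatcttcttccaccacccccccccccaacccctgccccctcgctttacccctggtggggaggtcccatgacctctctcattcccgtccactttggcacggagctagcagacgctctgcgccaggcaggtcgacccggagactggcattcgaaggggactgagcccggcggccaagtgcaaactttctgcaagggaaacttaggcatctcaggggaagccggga

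The Zic1 window held 1 TGTCA, whose first base lies at position -248 from the start, and the Zic4 window held 1 at -118. All 250 bases of the Zic4 window lie in exons of Zic4 in GENCODE M21, so its letters are also those of an annotated transcript. The Zic5 window held none. These letters occur in 40.4% of 27025 promoter windows of the same length, so a match is common. The Gli recognition sequence GACCACCCA, searched on both strands, was found in none of the 3 windows and in 0.2% of all windows. Zic1 had 27 CpG dinucleotides in the 250 bases and Zic5 had 11, against 4 in Zic4 and a median of 6 over all windows. A match in letters is a description and no evidence of binding.

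Levels of different genes were compared per kilobase of exon. On this scale the order was Zic2, Zic1, Zic5 and Zic4 in all 12 embryos, also when the length of the longest coding transcript was used. Zic2 stood at 16.6 ± 1.94 CPM per kb in the mutant-labelled embryos (SD, n = 8) and 23.5 ± 2.06 in wild type (SD, n = 4). Zic1 followed with 5.6 ± 2.69 and 4.9 ± 0.761 CPM per kb in the same groups. Zic5 had 0.94 ± 0.213 and 1.42 ± 0.143, and Zic4 had 0.107 ± 0.0669 and 0.117 ± 0.0279. Within each group no 2 members overlapped in range. Zic2 made up 72.3% ± 8.13 of the summed level of the 4 genes in the mutant-labelled embryos (SD, n = 8), against 78.5% ± 2.35 in wild type (SD, n = 4). The corresponding share of Zic1 was 23.2% ± 8.26 against 16.4% ± 2.34. Embryos 7 and 8 differed most from wild type, with Zic1 at 35.6% and 35.4% of the total, and embryo 6 had the lowest Zic1 share of all, at 11.9%. The exon lengths come from GENCODE M21 and not from the annotation used for counting.

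**Figure D4:**
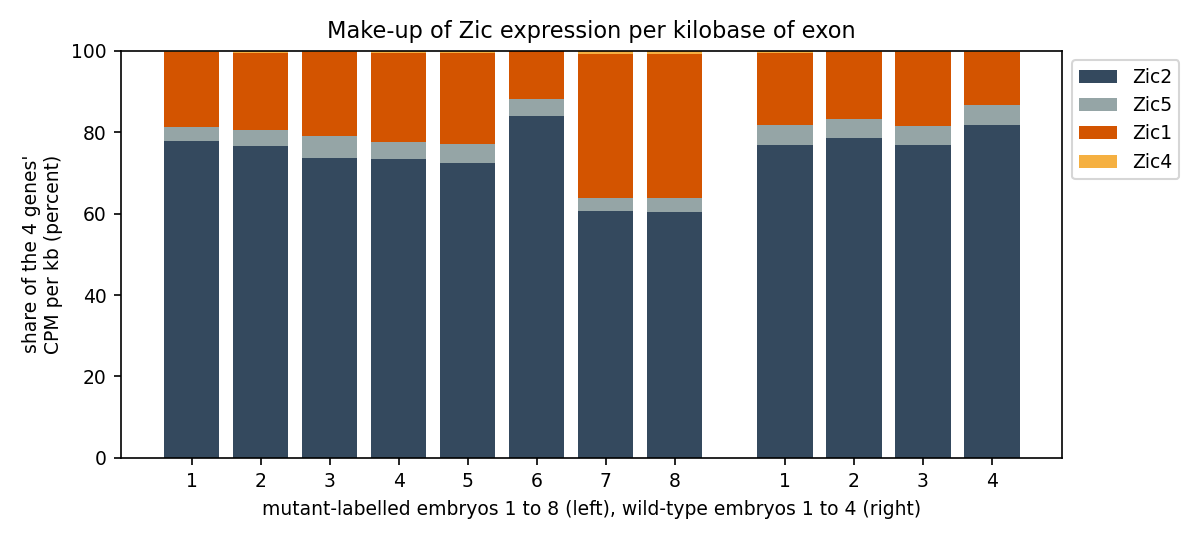
Share of each Zic gene in the summed CPM per kb of exon of the 4 genes (y axis, percent) in the 8 mutant-labelled embryos (left) and the 4 wild-type embryos (right). Zic2 is the largest part in every embryo, and Zic1 takes 35.6% and 35.4% in mutant-labelled embryos 7 and 8.

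The genes of the count table that flank the chromosome 14 pair were examined after the values of the members were seen. 2610035F20Rik, a noncoding transcript that starts 236 bases from Zic2 on the opposite strand, stood at 3.05 ± 0.699 CPM in the mutant-labelled embryos (SD, n = 8) and 4.16 ± 0.454 CPM in wild type (SD, n = 4). Its log2 fold change was -0.45 (SE 0.17, edgeR adjusted p = 0.0374), with 7 of 8 mutant-labelled embryos below all wild-type embryos. Pcca, which encodes a subunit of the mitochondrial propionyl-CoA carboxylase and lies beyond Zic2, fell by 0.67 on the log2 scale (SE 0.078, edgeR adjusted p = 5.39e-06). Its 8 of 8 mutant-labelled embryos lay below all wild-type embryos, as for 17.1% of all genes tested. Gm5089, a symbol that GENCODE M21 gives to 2 annotations on the Clybl side of Zic5, fell by 0.94 (SE 0.27, edgeR adjusted p = 0.00933). Its counts were low, 4 to 18 per mutant-labelled embryo and 15 to 23 per wild-type embryo, and part of it lies antisense to Clybl. Clybl, the next protein-coding gene on that side, had a log2 fold change of 0.24 and did not pass (edgeR adjusted p = 0.0557). Of all genes tested 51.5% passed, 24.9% as lower, and whether the region fell as a whole was not tested.

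The genes most like each member were ranked over 10420 genes by Pearson r of their log2 deviations from the group mean over the 12 embryos, as a description. For Zic1 they were Zfp41 (r = 0.98), the zinc finger regulator gene Prdm16 (0.98) and Cask, a scaffold kinase gene (0.97). Prdm16 itself stood at 4.71 to 12.1 CPM in the mutant-labelled embryos, against 3.94 to 4.87 CPM in wild type, a log2 fold change of 0.92 (SE 0.20, edgeR adjusted p = 0.00162). For Zic4 they were Zfp41 (0.97), Cask (0.96) and the mitochondrial gene Apool (0.96). For comparison, Zic1 and Zic4 had an r of 0.97 with each other on this scale. For Zic2 the nearest genes were the syndecan gene Sdc3 (0.90), Tmem163 (0.89) and the adaptor gene Efs (0.89), and Zic2 and Zic5 had 0.80. For Zic5 they included the kainate receptor gene Grik3 (0.97) and Zfp219 (0.92). Neither of these passed the test of genotype, with log2 fold changes of 0.40 for Grik3 (SE 0.19, edgeR adjusted p = 0.101) and -0.11 for Zfp219 (SE 0.073, edgeR adjusted p = 0.219). The highest of so many r values are large by selection, and the points share libraries and, for Zic1 and Zic4, embryos 6, 7 and 8 at the ends of the range.

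Scores of tissue gene lists were compared with the members over the 8 mutant-labelled embryos, a choice made after the members' values were seen, with 36 relations in all. Some lists share genes, among them the dorsal neural and somite lists and the pan-neural and forebrain lists, so the relations are not independent. Zic1 was higher with a higher dorsal neural tube and roof plate score (r = 0.90, exact permutation adjusted p = 0.0179; rho = 0.95, exact permutation adjusted p = 0.0205). Zic4 did so too (r = 0.95, exact permutation adjusted p = 0.0107; rho = 0.95, exact permutation adjusted p = 0.0205). Since Zic1 and Zic4 ranked the 8 embryos alike, the rank values of Zic4 had to equal those of Zic1 and are no separate result. Embryos 1 and 6 had the lowest dorsal scores, 3.54 and 3.53, and embryo 7 the highest, 3.92, against 3.73 to 3.8 in wild type. Without embryos 1 and 6 r was 0.92 for Zic4 (exact permutation p = 0.0264) and 0.79 for Zic1 (exact permutation p = 0.0611), and with 6 embryos left Zic1 did not pass. Zic1 had r = 0.87 with the pan-neural score and 0.89 with the somite and dermomyotome score (exact permutation adjusted p = 0.0312 and 0.0364), but by rank neither passed (rho = 0.79 and 0.81, exact permutation adjusted p = 0.0914 for each). Without the 2 embryos farthest in the score, r was 0.74 (exact permutation p = 0.119) and 0.93 (exact permutation p = 0.0403). Zic4 gave r = 0.85 and 0.86 with the same 2 scores (exact permutation adjusted p = 0.0374 for each), and the same rank values. Without the same embryos its r was 0.62 with the pan-neural score (exact permutation p = 0.2) and 0.87 with the somite and dermomyotome score (exact permutation p = 0.0486).

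Zic2 and Zic5 did not pass with the dorsal score (r = 0.62 and 0.54, exact permutation adjusted p = 0.194 and 0.279). The relation of Zic2 that passed was with the heart score (r = 0.89, exact permutation adjusted p = 0.0179; rho = 0.93, exact permutation adjusted p = 0.0268). Without embryos 2 and 6 it did not pass, with r = 0.77 over the 6 embryos left (exact permutation p = 0.0889). Between the groups the heart genes went the other way, with 17 of 20 called higher in the mutant-labelled embryos, beside 26.6% of all genes tested, and none lower. Their scores were 6.39 to 7.07 in the mutant-labelled embryos, against 5.83 to 6.05 in wild type. The part of heart tissue in the Zic2 values was not tested.

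**Figure D5:**
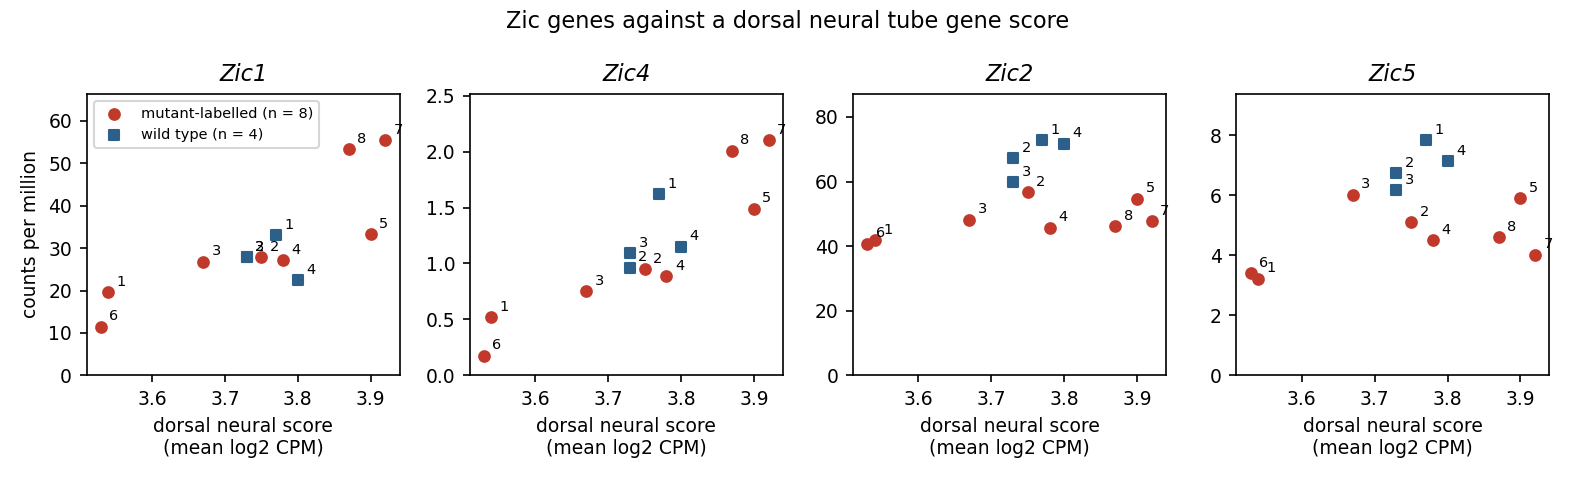
CPM of each Zic gene (y axis, from 0) against the dorsal neural tube and roof plate score, the mean log2 of CPM plus 0.5 of the listed genes (x axis), with each embryo numbered within its group. Zic1 and Zic4 climb with the score over the mutant-labelled embryos, from embryos 1 and 6 at 3.54 and 3.53 to embryo 7 at 3.92, while Zic2 and Zic5 of mutant-labelled embryos stay below wild-type embryos of like score.

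Related genes were counted by list. Over all genes tested 51.5% were called, 26.6% as higher and 24.9% as lower, and the median log2 fold change was 0.0066. Of the 6 Gli and Glis genes, the nearest zinc finger relatives of the Zic family, 1 rose and 2 fell. These were Glis1 (1.12, SE 0.23, edgeR adjusted p = 0.00104), the hedgehog target gene Gli1 (-0.40, SE 0.092, edgeR adjusted p = 0.00218) and Gli3, a mainly repressive mediator of hedgehog signalling (-0.24, SE 0.077, edgeR adjusted p = 0.0179). Of 22 holoprosencephaly and midline genes tested besides Zic2, 11 fell and 2 rose, with a median of -0.26. Tgif1, the targeted gene, is one of those 11. Of 19 dorsal neural tube and roof plate genes 4 rose and 4 fell (5 called in all without wild-type embryo 3), among them the roof plate genes Wnt3a (-0.78, SE 0.097) and Lmx1a (-0.52, SE 0.11) and, upward, Wnt4 (0.59, SE 0.13). Of 20 pan-neural genes 2 rose and 2 fell, with a median of 0.0015, Ncam1, a cell adhesion gene, highest at 1.17 (SE 0.10).

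The next lists are likewise set beside 26.6% of all genes tested called higher and 24.9% called lower. Of 20 neural crest genes 3 rose and 1 fell, and of 19 somite and dermomyotome genes 2 rose and 6 fell, with medians of 0.14 and -0.33. Snai2, a regulator of crest emigration, rose by 0.91 (SE 0.11), and Sim1, a dermomyotome gene, fell by 1.01 (SE 0.21). Of 20 forebrain and eye field genes 8 fell and 1 rose, and 5 were called in all without wild-type embryo 1. Of 15 midbrain and hindbrain genes 3 fell and 1 rose, and 2 were called in all without wild-type embryo 4. Zic2 and Zic5, with log2 fold changes of -0.51 and -0.60, stood below the medians of the dorsal neural (0.049) and pan-neural lists. Nearer to them were the medians of the somite and dermomyotome (-0.33), forebrain and eye field (-0.28) and holoprosencephaly (-0.26) lists. The midbrain and hindbrain list had -0.17, the Gli and Glis list -0.14 and the neural crest list 0.14.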

How the data were processed

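Polyadenylated RNA of 12 single whole embryos was sequenced with paired reads of 50 bases, per the labels' protocols. The values are raw counts for each gene symbol, as the authors deposited them. FastQC, STAR, featureCounts and DESeq2 with build mm9 are named in the submitters' processing notes. The sources used here give neither their versions nor the counting annotation.

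Embryos were grouped by the genotype label. Nothing pairs the groups. Labels give no batch or litter, so the tests treat the embryos as independent. Litters or batches that differ between the groups cannot be told apart from genotype. No 2 libraries of a group were within sampling noise (lowest chi-square per degree of freedom 3.89 over 34 pairs).

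Counts of all genes were tested with edgeR 4.0.16 (TMM scaling, filterByExpr, robust quasi-likelihood F test, Benjamini-Hochberg over 14412 genes, threshold 0.05). CPM is TMM-scaled. Log2 values for ratios, scores and correlations use CPM plus 0.5. Permutation tests are exact and two-sided, adjusted within each family. On simulated counts of 14305 genes the genotype test recovered 47 of 62 genes changed 1.5-fold and 62 of 70 changed 2-fold. Of 179 genes called there, 7 were unchanged. Far fewer genes were changed in the simulation than were called in the data (51.5%), so these rates need not hold for this comparison.

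The members and lists were chosen with earlier results of these data known. Named are the members, Tgif1, Tgif2, the 3 genes most like each member among those with a mean of at least 5 CPM, and up to 3 genes of lowest p per list. A gene that this rule names is not reported here. The flanking genes, and the list scores set against the members, were chosen after the values were seen. Alternatives were other scalings, DESeq2 1.42.0, limma 3.58.1 voom, other filters, covariates, GC and length trends, another pseudocount and omitted embryos. Symbols were matched to GENCODE M21 for 98% of the table. Near-identical copies have at least 200 bases at 95% identity by BLAST 2.17.0.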

Additional observations from a re-analysis of the deposited data

How the results depend on the processing

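Zic2 and Zic5 kept their direction and their calls in each of the 14 other analyses of all genes and in each of the 12 fits with 1 embryo left out, with log2 fold changes of -0.68 to -0.46 and -0.65 to -0.48, and -0.57 to -0.47 and -0.66 to -0.54 with 1 embryo left out. Zic1 and Zic4 passed in none of them. Zic1 turned to -0.011 with the pan-neural score as a covariate (adjusted p = 0.964), and Zic4 to 0.096 without mutant-labelled embryo 2 and wild-type embryo 1. With 1 embryo left out Zic1 lay at 0.033 to 0.32 and Zic4 at -0.29 to 0.059. The cause of these turns was not tested. The difference in the Zic2 to Zic5 ratio turned to -0.039 with a pseudocount of 2 CPM. Relative to the pan-neural score, the same change of pseudocount moved Zic5 from -0.60 to -0.48, and Zic2 only from -0.53 to -0.52. Relative to the pan-neural score Zic1 lay at -0.086 to 0.18 with 1 embryo left out. The correlation of Zic2 and Zic5 lay at 0.72 to 0.89 with 1 embryo left out, an alternative added after seeing the data except for embryo 2. With 1 embryo left out, 5 to 8 dorsal neural genes, 5 to 10 forebrain genes and 2 to 4 midbrain and hindbrain genes were called. No paired analysis was possible because the labels give no replicate numbers or litters that link the groups. Depth limits Zic4, with 3 counts in its lowest library.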
